A study of Homo sapiens with 12 samples.

Results

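MiR-21 was described by its 2 mature miRNAs, hsa-mir-21-5p and hsa-mir-21-3p, out of 1733 mature miRNAs listed in 12 small RNA libraries. The pair was chosen by the share of reads, because miR-21-5p held more reads than any other miRNA in 12 of 12 libraries, so its rank and its share are given as a description. The libraries came from AsPC-1 and PANC-1, which are established human PDAC cell lines, AsPC-1 from ascites and PANC-1 from a primary pancreatic tumor. Each line contributed 3 control cultures and 3 knockdown cultures, which were transfected with siRNA against MYEOV, the gene whose depletion the study examined. The labels describe the controls as cells without treatment, whereas their protocol names a negative control siRNA, and the groups were used as labelled. Small RNA was prepared 48 h after transfection according to the labels, and the methods give an earlier time. AsPC-1 cells were grown in RPMI medium and PANC-1 cells in DMEM, both with serum, so the line and its medium cannot be told apart. Within a group the libraries are numbered 1 to 3, which was taken as the replicate. The protocol names a pair of siRNAs against MYEOV, siMYEOV-1 and siMYEOV-2, and the numbers of the knockdown libraries could also denote the siRNA used, in which case the SD of a knockdown group would include a difference between siRNAs. The methods speak of independent experiments in general, and the labels do not say how the cultures of a group were kept apart. If they were not, p-values measure only the spread between these libraries. MYEOV itself is not among the counted miRNAs, so how far it was depleted is not known from these libraries.

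MiRNAs are cut from a hairpin precursor, first by Drosha in the nucleus and then by Dicer in the cytoplasm, which leaves a duplex of a 5p and a 3p strand. One strand is usually loaded into an Argonaute protein as the guide and the other, the passenger strand, is mostly degraded, so that the ratio of the arms describes which strand is kept. MiR-21-5p is the guide strand of its hairpin, is among the best known oncogenic miRNAs of solid tumors including PDAC, and represses mRNAs of tumor suppressors such as PDCD4. Because reads of a library are counted out of a fixed total, a miRNA that takes a large share of them also sets how many are left for the others.

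The mature sequence of miR-21-5p is given with that of miR-590-5p, the other human miRNA that has the same seed in RefSeq (GRCh38.p14). Capitals mark the seed, bases 2 to 8 from the 5′ end, by which a miRNA recognises its targets.
hsa-mir-21-5p: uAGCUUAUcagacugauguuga
hsa-mir-590-5p: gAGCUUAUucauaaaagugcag

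In GRCh37, the build the authors mapped to, miR-21-5p has 1 exact match, at chr17:57918634-57918655 on the plus strand, so no second locus with this sequence shares its reads. It lies in the hairpin gene MIR21 (chr17:57918627-57918698, plus strand), which GENCODE places inside VMP1, a gene of autophagy on the same strand. The hairpin falls in the 3′ UTR of 6 of the 6 protein-coding VMP1 transcripts that span it. MiR-590-5p, which shares the seed, was rare. Its counts in AsPC-1 were 16, 16 and 8 reads in the control libraries and 5, 8 and 7 after knockdown. In PANC-1 its counts were 6, 6 and 1 in the controls and 2, 1 and 3 after knockdown. It did not pass the filter on low counts in either line, so miR-21-5p gave nearly all reads of the miRNAs known here to have this seed.

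The libraries held 3805084 to 7311783 counted reads and listed 1014 to 1144 miRNAs each. In AsPC-1 the knockdown libraries (5587106 to 5934261 reads) were all smaller than the control libraries (6463528 to 7311783 reads). AsPC-1 control replicate 1 stood apart. Its root mean square difference in log2 CPM over the tested miRNAs was 0.440 to each of the other AsPC-1 controls, against 0.289 to 0.370 between the members of every other replicate pair, and values without it stand beside several of the AsPC-1 comparisons. The miR-200 family and miR-141, which mark epithelial cells, summed to 48700 to 52700 CPM of the total count in AsPC-1, whereas PANC-1 had 212 to 276. Summed markers of other cell types differed by list. The acinar list reached 0.509 CPM, the leukocyte list 11.6, the islet list 12.1, the liver list 10.8 and the stromal list 71.4. The muscle list, of which 2 of 3 miRNAs were listed, gave 127 to 177 in PANC-1 and at most 1.54 in AsPC-1. The erythroid list gave 396 to 564 over both lines, and in PANC-1 (428 to 564) it was above the epithelial sum.

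The share of miR-21-5p was larger in PANC-1 than in AsPC-1. It held 19.2%, 17.2% and 17.8% of the reads in the AsPC-1 control libraries and 18.04%, 17.5% and 17.4% after knockdown. In PANC-1 it held 26.7%, 25.0% and 26.1% of the reads in the control libraries and 27.4%, 29.5% and 30.1% after knockdown. No AsPC-1 library overlapped with any PANC-1 library, and the control means were 18.1% ± 1.0 (SD, n = 3) in AsPC-1 and 25.9% ± 0.89 (SD, n = 3) in PANC-1. How many other miRNAs had shares that were likewise apart was not counted. In edgeR's test below, 519 of 627 tested miRNAs (82.8%) were called between the control libraries of the lines. The Wilson 95% confidence interval of a share was at most 0.089 percentage points wide, far narrower than the spread between libraries. PCR copies were not collapsed with molecular identifiers, and the interval covers counting error only.

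The 2nd most abundant miRNA differed between the lines. It was let-7i-5p, a member of the let-7 family, in the AsPC-1 libraries and miR-100-5p in the PANC-1 libraries. MiR-21-5p had 2.81 times the reads of let-7i-5p in AsPC-1 control replicate 1 and 1.81 to 1.99 times in the other 5 AsPC-1 libraries, and 1.98 to 2.75 times those of miR-100-5p in PANC-1. In AsPC-1 controls, let-7i-5p held 8.35% ± 1.32 (SD, n = 3) of the reads, followed by miR-192-5p with 5.52%, miR-7-5p with 5.20% and miR-194-5p with 4.75%. MiR-192 and miR-194 are known from epithelia of the gut and as targets of p53. In PANC-1 controls, miR-100-5p held 12.4% ± 0.21 (SD, n = 3), followed by miR-10a-5p, whose gene lies in a HOX cluster, with 4.81%, miR-26a-5p with 3.21% and miR-381-3p with 3.16%. The top 10 miRNAs of a library summed to 57.0% to 59.9% of it for AsPC-1, and to 60.2% to 64.9% for PANC-1.

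**Figure D1:**
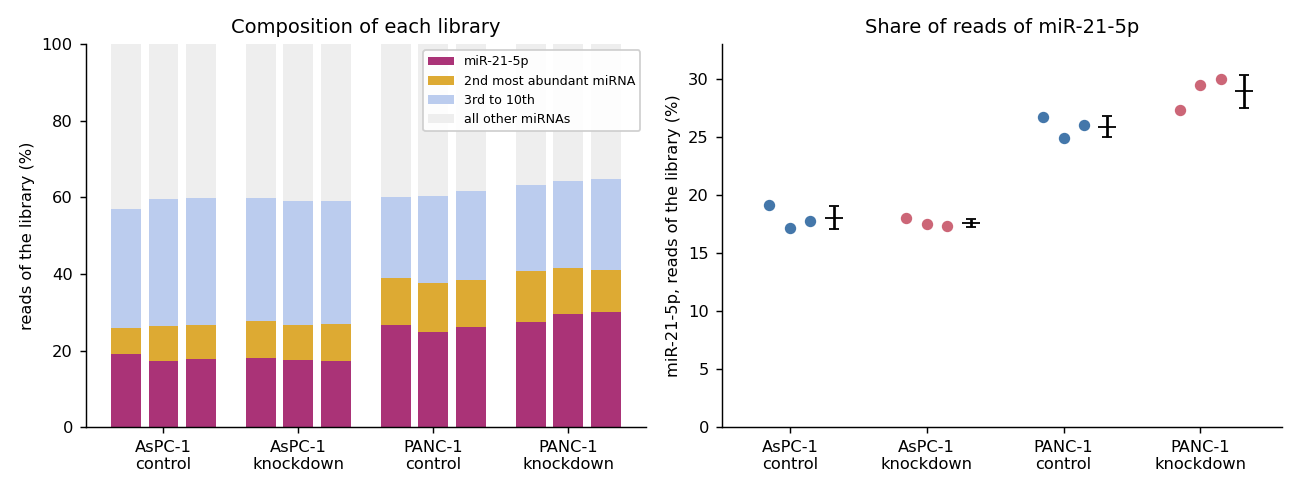
Left, reads of each library in percent, split into miR-21-5p, the 2nd most abundant miRNA, the 3rd to 10th and all others; right, the share of miR-21-5p in percent, with points for libraries and bars for the mean ± SD of 3. The 6 AsPC-1 libraries lie at 17.2% to 19.2%, and the 6 PANC-1 libraries at 25.0% to 30.1% with the knockdown libraries above the controls.

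On MYEOV knockdown, the share of miR-21-5p differed by 3.04 percentage points in PANC-1, from 25.9% to 29.0% ± 1.41 (SD, n = 3), and the groups did not overlap. The exact permutation test over these libraries gave p = 0.1 (two-sided), which is the smallest value that 3 libraries against 3 can give. Overlap was not counted for the shares of other miRNAs. In the scaled CPM used below, 36.7% of the miRNAs tested in PANC-1 had groups that did not overlap. In AsPC-1 the difference was -0.429 percentage points, to 17.6% ± 0.35 (SD, n = 3), with overlapping groups and p = 0.7 in the same exact permutation test. Without AsPC-1 control replicate 1, which had the largest share of its line, the difference was 0.119 percentage points. Among the other abundant miRNAs of PANC-1, the mean shares differed by -0.316 points for miR-100-5p, 0.0278 for miR-10a-5p, 0.0984 for miR-26a-5p and 0.456 for miR-381-3p. In AsPC-1 they differed by 1.17 points for let-7i-5p, -0.0511 for miR-192-5p, -0.939 for miR-7-5p and -0.461 for miR-194-5p. Without AsPC-1 control replicate 1 these differences were 0.412, -0.0556, -1.23 and 0.0772 points, so that of let-7i-5p was smaller and that of miR-194-5p turned. In bulk RNA, fewer cells that make a miRNA and less of it per cell cannot be told apart.

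A share depends on all other miRNAs of the library, so the change was also tested with edgeR's quasi-likelihood test, in which CPM values are scaled with TMM factors within each line. With these factors miR-21-5p was called higher in PANC-1 and did not pass the test in AsPC-1. In PANC-1 its CPM was 246847, 236771 and 256808 in the control libraries and 279916, 308115 and 326502 after knockdown. Each knockdown library was above each control library, and the LFC was 0.30 (SE 0.0985, adjusted p = 0.0268, edgeR), a 1.235-fold difference. In AsPC-1 its CPM was 183121, 173975 and 182313 in the control libraries and 184431, 171900 and 175352 after knockdown. These groups overlapped throughout, with an LFC of -0.02 (SE 0.075, adjusted p = 0.899, edgeR) and a 95% confidence interval from -0.181 to 0.139. Without AsPC-1 control replicate 1 the LFC was -9.12e-05, and in a fit of all 12 libraries it was -0.12 (adjusted p = 0.463, edgeR). For PANC-1 this interval ran from 0.104 to 0.505. The PANC-1 call was lost with the total count (LFC 0.16, adjusted p = 0.137, edgeR), with upper-quartile factors and without some single libraries, as given below.

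MiR-21-3p, the passenger strand, was far less abundant and had a larger LFC in both lines. It ranked between 71 and 95 in the libraries, with 507 to 1337 CPM of the total count. In PANC-1 its CPM was 1017, 879 and 867 in the control libraries and 1196, 1397 and 1444 after knockdown, and the groups did not overlap. Its LFC was 0.55 (SE 0.0892, adjusted p = 3.37e-05, edgeR), a 1.461-fold rise that ranked 10 of 551 tested miRNAs by p. MiR-21-5p ranked 82 in that order. In AsPC-1 the CPM of miR-21-3p was 684, 513 and 588 in the control libraries and 752, 675 and 762 after knockdown. Control replicate 1 lay above knockdown replicate 2, and the LFC of 0.29 (SE 0.102, adjusted p = 0.0749, edgeR) did not pass the threshold. Without AsPC-1 control replicate 1 the LFC was 0.41 with an adjusted p of 0.000128 (edgeR), so whether it passed depended on that library. It also passed with all 6 libraries when no filter on low counts was used (LFC 0.29, adjusted p = 0.0455, edgeR), but not in the fit of all 12 libraries (LFC 0.18, adjusted p = 0.319) or with the total count (LFC 0.28, adjusted p = 0.138).

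**Figure D2:**
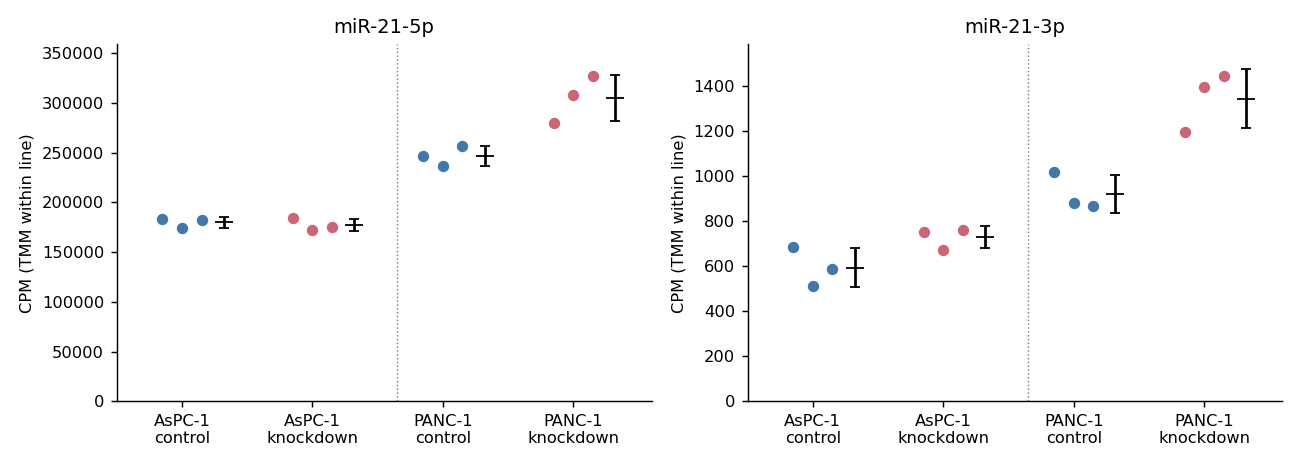
CPM of miR-21-5p (left) and miR-21-3p (right) in each library, scaled with TMM factors within each line, with points for libraries and bars for the mean ± SD of 3; the dotted line separates the lines, which were scaled apart. In PANC-1 both arms lie higher in each knockdown library than in each control library, whereas in AsPC-1 the groups overlap for both arms.

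Read against all tested miRNAs, a call was common in PANC-1. In that line, 121 of 551 tested miRNAs (22.0%) passed the threshold, 70 of them higher after knockdown (12.7%), and 36.7% of the tested miRNAs had groups of CPM that did not overlap. In AsPC-1, 57 of 498 (11.4%) passed and 30.5% had groups that did not overlap. The median LFC over all tested miRNAs was 0.03 in PANC-1 and -0.0047 in AsPC-1. The median absolute LFC was 0.397 among the DE miRNAs of PANC-1, above the value of miR-21-5p and below that of miR-21-3p. Among replicates, miR-21-5p varied little. The SD of its log2 CPM within groups was 0.047 for AsPC-1 libraries and 0.0895 for PANC-1 libraries, where the medians over tested miRNAs were 0.18 and 0.154, and that of miR-21-3p was 0.162 and 0.136.

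A difference in response between AsPC-1 and PANC-1 was tested as an interaction term in one fit of 12 libraries. The change of miR-21-5p was larger in PANC-1 by 0.43 on the log2 scale (SE 0.133), with an adjusted p of 0.11 (edgeR). For miR-21-3p the difference was 0.36 (SE 0.156) with an adjusted p of 0.33 (edgeR). Neither passed the threshold, and 2 of 650 tested miRNAs (0.308%) did, so a difference between the lines was not shown. The sizes depended on the scaling. With DESeq2's size factors the difference was 0.26 (adjusted p = 0.452, edgeR) for miR-21-5p and 0.19 (adjusted p = 0.684) for miR-21-3p. With the total count it was 0.19 (adjusted p = 0.477, edgeR) and 0.12 (adjusted p = 0.837), and with miR-21-5p left out of that total 0.26 (adjusted p = 0.381) and 0.19 (adjusted p = 0.753). Without AsPC-1 control replicate 1 the difference for miR-21-5p was 0.40 with an adjusted p of 0.0467 (edgeR), and without AsPC-1 control replicate 2 it was 0.50 with an adjusted p of 0.0439. For miR-21-3p it was 0.23 with an adjusted p of 0.440 (edgeR) without AsPC-1 control replicate 1, and 0.51 with an adjusted p of 0.0470 without replicate 2. The other fits without 1 library gave no call for either arm.

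The ratio of the arms needs no scaling, since both arms are counted in one library. For each read of miR-21-3p there were 268, 339 and 310 reads of miR-21-5p in the AsPC-1 control libraries and 245, 255 and 230 after knockdown. In PANC-1 the ratios were 243, 269 and 296 in the control libraries and 234, 221 and 226 after knockdown. Each knockdown library was below each control library of its line, with mean ratios of 306 ± 36.1 and 243 ± 12.4 (SD, n = 3 each) in AsPC-1 and 269 ± 26.8 and 227 ± 6.8 (SD, n = 3 each) in PANC-1. The 3p arm had 3352 to 6553 reads per library, and the exact 95% interval of a ratio spanned at most 6.82% of its value.

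On the log2 scale, the arm ratio differed by -0.32 (SE 0.126) in AsPC-1 and by -0.24 (SE 0.0946) in PANC-1. Tested with limma over all hairpins with both arms counted, neither passed the threshold, with adjusted p = 0.151 over 125 hairpins and 0.154 over 150. Without AsPC-1 control replicate 1 the AsPC-1 difference was -0.42 (adjusted p = 0.0525, limma). In this test 18 hairpins of AsPC-1 (14.4%) and 8 of PANC-1 (5.33%) passed, and 30.4% and 28.7% of the hairpins had groups that did not overlap. The changes in the lines differed by 0.08 (SE 0.144, adjusted p = 0.967) in limma's interaction test, which called 0 of 159 hairpins (0.00%), with 14 at an unadjusted p under 0.05. This value depended on single libraries, at 0.17 without AsPC-1 control replicate 1, 0.000859 without AsPC-1 control replicate 2, 0.04 without AsPC-1 knockdown replicate 3, 0.0068 without PANC-1 control replicate 1 and 0.15 without PANC-1 control replicate 3, and it passed in none of these fits. Of 104 hairpins tested in both lines, 6 (5.77%), miR-21 among them, had a ratio in each knockdown library below that of each control library in both lines, and 7 had it above. The others with a lower ratio were let-7b, miR-125a, miR-195, miR-30b and miR-339, and this count was made after the values were seen. The 6 all favored 5p in the controls of both lines, and the 7 with a higher ratio all favored 3p. In both sets the ratio thus moved toward the minor arm. The AsPC-1 knockdown libraries were all smaller than their controls, whereas library sizes overlapped between the groups of PANC-1, and the part of library size in the arm ratio was not tested.

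Compared with other hairpins, the arms of miR-21 were unequal. In AsPC-1 controls, 72 of 125 hairpins had more 5p than 3p reads, and 7 of them favored 5p more than miR-21 did. In PANC-1 controls the counts were 77 of 150 and 11. The median hairpin had 11.5 times more reads of its major arm in AsPC-1 and 8.57 times in PANC-1. The hairpins nearest to miR-21 in arm ratio were miR-183 (301) and miR-125a (299) in AsPC-1, and miR-98 (271), of the let-7 family, and miR-125a (234) in PANC-1. The log2 ratio of miR-125a differed by -0.39 (adjusted p = 0.237, limma) after knockdown in AsPC-1 and by -0.56 (adjusted p = 0.0661) in PANC-1. That of miR-183 differed by 0.16 (adjusted p = 0.348, limma) and that of miR-98 by -0.07 (adjusted p = 0.822). Over all hairpins the median change was -0.05 (AsPC-1) and -0.02 (PANC-1), which mixes hairpins that favor 5p with those that favor 3p. In AsPC-1, the 9 hairpins called lower all favored 5p in the controls, and those called higher, all but miR-877, favored 3p. In PANC-1, the 1 called lower favored 5p, and the 7 called higher, all but miR-379, favored 3p. Most called ratios thus moved toward the minor arm, as did the uncalled ratio of miR-21. Between the control libraries of the lines, the log2 arm ratio of miR-21 was lower in PANC-1 by 0.18 (SE 0.133, adjusted p = 0.334, limma), with overlapping groups, whereas 53 of 160 hairpins (33.1%) passed. This value was -0.27 without AsPC-1 control replicate 1, -0.10 without AsPC-1 control replicate 2 and -0.11 without PANC-1 control replicate 1, and passed in none of these fits.

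**Figure D3:**
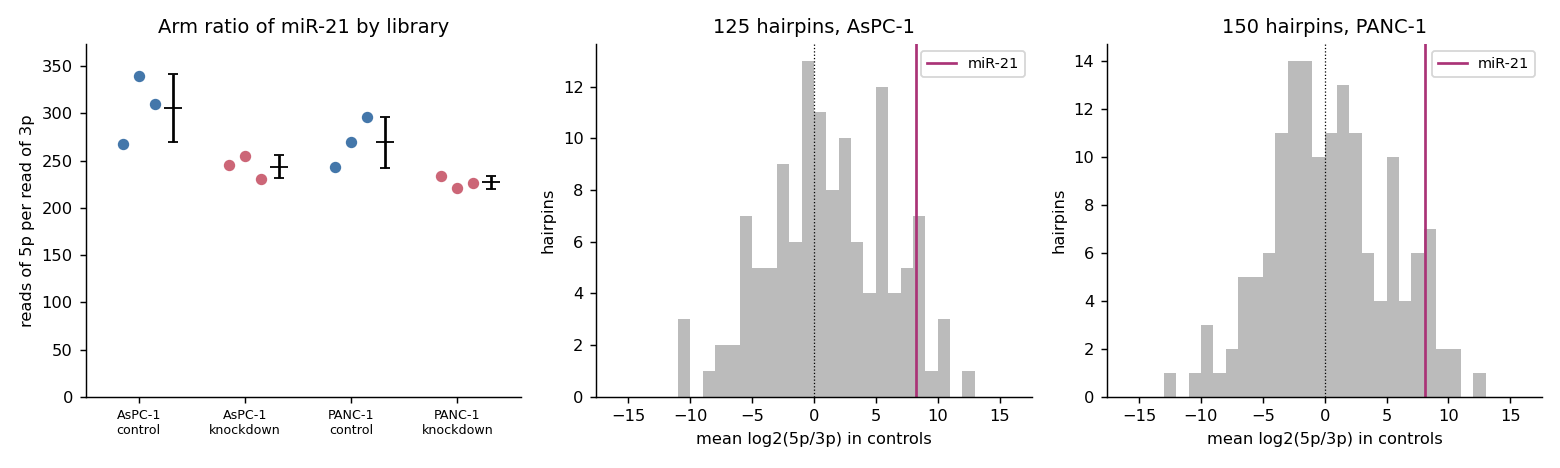
Left, reads of miR-21-5p per read of miR-21-3p in each library, with the mean ± SD of 3; middle and right, histograms of the mean log2 ratio of 5p to 3p reads in the control libraries over 125 hairpins in AsPC-1 and 150 in PANC-1, with miR-21 as a vertical line. The knockdown libraries lie below the controls in both lines, and the line for miR-21 stands near the right end of both histograms.

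How much a miRNA with this share moves the scaling of the others was examined by repeating the knockdown comparison with other library sizes. The reads left for all miRNAs other than miR-21-5p were 80.8% to 82.8% of the AsPC-1 libraries by the shares above, and 69.9% to 75.0% of the PANC-1 libraries. On the log2 scale, the mean of this remainder differed by -0.06 between knockdown and control in PANC-1 and by 0.0076 in AsPC-1. TMM factors, which correct for such differences in composition, were 1.02 to 1.08 in the PANC-1 controls and 0.920 to 0.978 after knockdown, without overlap. In AsPC-1 they were 0.978 to 1.05 in the controls and 0.978 to 1.02 after knockdown.

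In PANC-1 the direction of the calls depended on the scaling. With TMM factors, 70 miRNAs were called higher and 51 lower. With the total count as the library size, 26 were called higher and 117 lower (26.0% of those tested), and 77 of these calls were shared with TMM. When the reads of miR-21-5p were left out of the total, 34 were higher and 79 lower (20.5% of those tested), with 85 shared. When the reads of the 10 most abundant miRNAs were left out, an alternative added after the data were seen, 66 were higher and 51 lower, with 117 shared with TMM. The LFC of each tested miRNA was set against its own LFC with TMM, and the median of these differences was -0.145 with the total count, -0.0839 without miR-21-5p and -0.0105 without the 10 most abundant miRNAs. Leaving out miR-21-5p alone thus took back part of the shift.

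In AsPC-1 the same changes had little effect. The calls were 35 higher and 22 lower with TMM, 35 and 24 with the total count (11.8% of those tested), and 33 and 21 without miR-21-5p (10.8%). The median difference from the LFC with TMM was -0.0123 with the total count. A fit of all 12 libraries with one set of TMM factors did turn the balance in AsPC-1, to 25 higher and 45 lower.

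The LFC of miR-21-5p in PANC-1 moved with these choices. It was 0.16 (adjusted p = 0.137, edgeR) with the total count, 0.22 (adjusted p = 0.0462) with miR-21-5p left out of the total, and 0.35 (adjusted p = 0.140) with upper-quartile factors, so 2 of these scalings lost the call. MiR-21-3p kept its call in PANC-1 with each scaling, at an LFC of 0.40 to 0.60 and an adjusted p of at most 0.00537 (edgeR). Relative to the median LFC of all tested miRNAs, miR-21-5p was higher by 0.28 and miR-21-3p by 0.52 to 0.53 with each of the 7 scalings, because a scaling shifts all miRNAs alike. The call on miR-21-5p in PANC-1 was also lost without control replicate 2 (LFC 0.27, adjusted p = 0.154), without knockdown replicate 2 (0.29, adjusted p = 0.135) and without knockdown replicate 3 (0.25, adjusted p = 0.0992, edgeR).

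**Figure D4:**
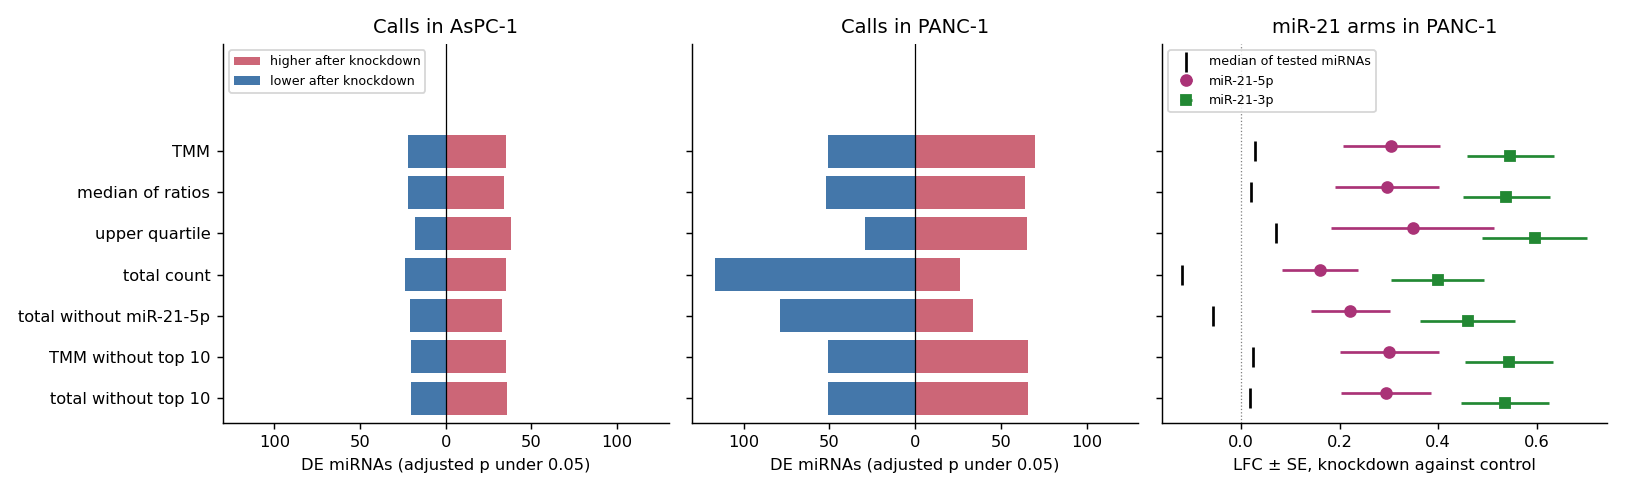
Left and middle, number of DE miRNAs higher (right of 0) and lower (left of 0) after knockdown in AsPC-1 and PANC-1 with 7 library scalings; right, LFC ± SE of both miR-21 arms in PANC-1 with the median LFC of all tested miRNAs as a black tick. The AsPC-1 bars hardly change, whereas in PANC-1 total-count scaling gives 26 higher and 117 lower and moves both arms and the median to the left.

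Between the control libraries of the lines, the level of miR-21 could not be given a direction that held with every scaling. With TMM factors across both lines, the CPM of miR-21-5p was 210448, 196055 and 202573 in AsPC-1 libraries and 228803, 222060 and 241311 in PANC-1. These groups did not overlap, but the LFC of 0.18 (SE 0.0857, adjusted p = 0.0590, edgeR) missed the threshold. It was 0.18 without AsPC-1 control replicate 1, and at its lowest 0.11 without PANC-1 control replicate 3. MiR-21-3p had a CPM of 786, 578 and 653 in AsPC-1 and 943, 825 and 815 in PANC-1, with an LFC of 0.36 (SE 0.119, adjusted p = 0.0130, edgeR), and 0.45 without AsPC-1 control replicate 1. The call was lost without AsPC-1 control replicate 2 or 3. In this comparison 519 of 627 tested miRNAs (82.8%) were called, 46.7% of those tested being higher in PANC-1, and the median LFC was 0.27. A call between the lines is thus the usual case.

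The size of this difference followed the scaling. For miR-21-5p the LFC was 0.52 (adjusted p = 1.5e-05, edgeR) with the total count, which is the comparison of the shares. It was 0.67 (adjusted p = 1.53e-06) when miR-21-5p was left out of the total, and 0.06 (adjusted p = 0.549) with TMM factors computed without the 10 most abundant miRNAs. With upper-quartile factors it turned to -0.74 (adjusted p = 8.97e-06, edgeR). MiR-21-3p turned likewise, from 0.84 without miR-21-5p in the total to -0.56 (adjusted p = 0.00014, edgeR) with upper-quartile factors. The median LFC of all tested miRNAs moved with them, from 0.745 to -0.653. Relative to that median, miR-21-5p stayed between -0.0847 and -0.0787 and miR-21-3p between 0.0894 and 0.0936 with the 6 scalings. These control libraries are the same as those in the knockdown comparisons.

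**Figure D5:**
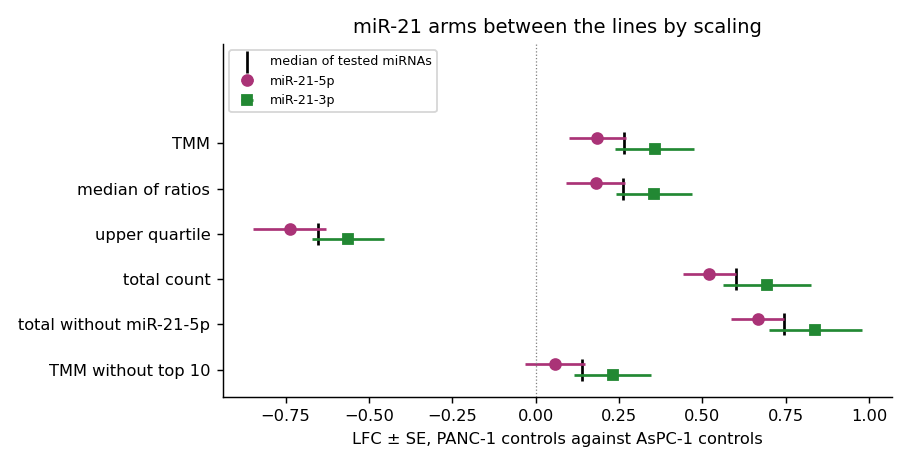
LFC ± SE of miR-21-5p and miR-21-3p in PANC-1 controls against AsPC-1 controls with 6 library scalings, with the median LFC of all tested miRNAs as a black tick. Both arms move with the median, from 0.67 and 0.84 with total count without miR-21-5p to -0.74 and -0.56 with upper-quartile factors.

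MiR-21-5p holds the letters CAGAC, which SMAD proteins recognise in the stems of some miRNA precursors, right behind its seed. The sequences below, from RefSeq, are those of miR-21-5p and of the 3 other miRNAs with these letters that had the highest mean CPM over the controls of both lines pooled, with the letters in capitals. Both the order and the members differ between the lines. MiR-215-5p had 3140 CPM of the total count in AsPC-1 controls but 10.7, at rank 5, in PANC-1 controls. MiR-2682-5p ranked 3 in PANC-1 and was not among the first 6 in AsPC-1.
hsa-mir-21-5p: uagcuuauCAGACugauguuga
hsa-mir-215-5p: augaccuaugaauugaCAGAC
hsa-mir-421: aucaaCAGACauuaauugggcgc
hsa-mir-2682-5p: caggcagugacuguuCAGACguc

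The letters were searched on the mature strand alone. They occur in 43 of 2370 human mature miRNAs in RefSeq (1.81%), and in 5 of the 440 miRNAs tested in AsPC-1 that matched a sequence and 6 of 489 in PANC-1. They lie at bases 9 to 13 of miR-21-5p and do not overlap its seed. In AsPC-1, 1 of the 5 was called in edgeR's test, lower, where 11.4% of all tested miRNAs were called. All 5 had an LFC below 0, and their median was -0.32 against -0.0047 over all tested miRNAs. That median is the value of the rare miR-1292-5p, at a control CPM of 4.62 (SE 0.305, adjusted p = 0.537, edgeR). MiR-199a-5p was also rare, at a control CPM of 2.9 (adjusted p = 0.249, edgeR). MiR-21-5p itself is among the 5, at -0.02, so these values do not show that the 5 fell as a set. The one called was miR-215-5p, which shares the seed of miR-192 and fell from a CPM of 3127 ± 260 to 1988 ± 82.7 (SD, n = 3 each), with an LFC of -0.65 (SE 0.0823, adjusted p = 0.000141, edgeR). In PANC-1, 2 of the 6 were called, where 22.0% of all tested miRNAs were. These were miR-21-5p, higher, and miR-421, lower (LFC -0.37, SE 0.113, adjusted p = 0.018, edgeR), and the median LFC of the 6 was -0.02 against 0.03. MiR-2682-5p was tested in PANC-1 alone, with an LFC of 0.15 (adjusted p = 0.58). In PANC-1, 3 of the 6 had an LFC above 0 and 3 below. A match is a description of the sequence, not a binding site.

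The miRNAs whose levels were most like those of each arm were found by Pearson's r of log2 CPM over 12 libraries, centred within each line, among 650 miRNAs. The values share libraries and scaling factors, and r is given as a description. The 2 arms of miR-21 had r = 0.74 with each other. Nearest to miR-21-5p were miR-561-3p (r = 0.94), miR-96-5p (0.88), miR-378a-3p (0.873), miR-30a-5p (0.865) and miR-5699-3p (0.856). The first and the last of these were rare. MiR-561-3p was tested in AsPC-1 alone at a CPM of 6.59, and miR-5699-3p in PANC-1 alone, at 1.35 in the controls and 3.11 after knockdown. MiR-378a-3p, from an intron of PPARGC1B, had an LFC of 0.41 (adjusted p = 0.000784, edgeR) in PANC-1 and 0.12 (adjusted p = 0.435) in AsPC-1. MiR-96-5p had an LFC of 0.21 (adjusted p = 0.0726, edgeR) in PANC-1 and -0.13 (adjusted p = 0.295) in AsPC-1, and miR-30a-5p had 0.23 (adjusted p = 0.0778) and -0.13 (adjusted p = 0.297).

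Nearest to miR-21-3p were miR-181a-3p (r = 0.968), miR-30b-3p (0.923), miR-27b-5p (0.914), miR-339-3p (0.883) and miR-378c (0.88). MiR-181a-3p, miR-30b-3p, miR-27b-5p and miR-339-3p were, like miR-21-3p, the arm of their hairpin with fewer reads in the controls of both lines. MiR-181a-3p rose in both lines, from a CPM of 299 ± 41.0 to 474 ± 36.5 in PANC-1 (SD, n = 3 each; LFC 0.67, adjusted p = 6.57e-06, edgeR) and from 497 ± 42.5 to 647 ± 40.2 in AsPC-1 (LFC 0.38, adjusted p = 0.0114). MiR-27b-5p had an LFC of 0.61 (adjusted p = 1.05e-05, edgeR) in PANC-1 and 0.34 (adjusted p = 0.0155) in AsPC-1. MiR-339-3p and miR-378c were also called higher in both lines, with LFCs of 0.26 to 0.35, whereas miR-30b-3p passed in neither (adjusted p = 0.126 and 0.104, edgeR). They were picked for their likeness, so these calls add no support to that of miR-21-3p.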

How the data were processed

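The 12 small RNA libraries, 3 control and 3 knockdown libraries of each line, were grouped by the sample labels. After removal of the adapter, the authors aligned reads to hg19 with Bowtie, without mismatches, and deposited raw counts for each mature miRNA. The version of Bowtie is not given in the sources used here. An arm was counted as its major sequence plus those that start at the same base, so isoforms with a shifted 5′ end enter neither the share nor the arm ratio. MiRNAs missing from the list of a library were set to a count of 0. Each deposited file holds 1 library, and 0 columns were left unused.

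The members and the lists of other miRNAs were chosen with earlier results of these data known. DE miRNAs were computed in each line with edgeR 4.0.16 in R 4.3.3 (filterByExpr with a minimum count of 10, TMM factors, quasi-likelihood F test, Benjamini-Hochberg adjustment over all tested miRNAs, threshold 0.05). The SE of an LFC was taken from the LFC and the square root of F. Arm ratios were computed as log2 of the counts plus 0.5 for hairpins with both arms at a mean count of at least 10 and tested with limma 3.58.1. Shares were tested with exact permutation tests over libraries. All tests were two-sided. The libraries held 3805084 to 7311783 reads, at which a count of 3 equals 0.410 to 0.788 CPM. The fits were also run on simulated counts with the same dispersion for all miRNAs. The only scaling used there was TMM, so the choice of scaling was not tested on them.

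The miRNAs named beside miR-21 follow a rule. It covers those with the same seed, ranks 2 to 5 by share in the controls of each line, the 5 most correlated with each arm, at most 3 with the letters CAGAC, and the 2 hairpins per line nearest in arm ratio. Alternatives were other size factors (median of ratios and the Wald test of DESeq2 1.42.0, upper quartile, total count), other filters, tests, pseudocounts and denominators, a replicate block, all 12 libraries in one fit, and leaving out each library.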

Additional observations from a re-analysis of the deposited data

How the results depend on the processing

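Of the comparisons of the 2 arms, the rise of miR-21-3p in PANC-1 kept its call in all 11 other settings and in all 6 fits without 1 library (LFC 0.49 to 0.62). For miR-21-5p in PANC-1 these fits gave 0.25 to 0.36, and the call was lost with upper-quartile factors (0.35) and the total count (0.16). In AsPC-1, the LFC of miR-21-5p without 1 library was -0.0538 to 0.0085, turning without knockdown replicate 2, and that of miR-21-3p was 0.19 to 0.41. Without a filter miR-21-3p passed in AsPC-1 (LFC 0.29, adjusted p = 0.0455, edgeR), as did the difference between the lines for miR-21-5p (0.46, adjusted p = 0.0433). These differences without 1 library were 0.34 to 0.50 for miR-21-5p and 0.23 to 0.51 for miR-21-3p. With at least 10 counts in every library they were 0.29 (adjusted p = 0.205, edgeR) and 0.21 (adjusted p = 0.496).

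Between the control libraries, miR-21-5p passed with the total count (0.52), with that total without miR-21-5p (0.67), with at least 10 counts in every library (0.22) and with robust moderation (0.18), and turned to -0.74 with upper-quartile factors. Without 1 library it was 0.11 to 0.18. MiR-21-3p turned to -0.56 with upper-quartile factors and missed the threshold with TMM without the 10 most abundant miRNAs (0.23) and without AsPC-1 control replicate 2 or 3, in a range of 0.25 to 0.45. The cause was not tested. Arm ratios kept their side of the limma threshold in all fits, also without each library. The mean difference of both lines was -0.28 in an exact permutation test over 12 libraries, added after the values were seen. Since the groups did not overlap in either line, its outcome was set by what prompted it, and it adds no support. Without 1 library the knockdown differences ran from -0.42 to -0.24 for AsPC-1 and from -0.32 to -0.17 for PANC-1, and the difference between the control libraries from -0.27 to -0.10. The share of miR-21-5p in AsPC-1 then differed by -0.859 to 0.119 points, turning without control replicate 1.

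The number of DE miRNAs in AsPC-1 was 24 to 102 without 1 library. It was 102 without control replicate 1, 24 without knockdown replicate 1 and 31 without knockdown replicate 3. In PANC-1 it was 55 to 129, with 68 without knockdown replicate 2 and 55 without replicate 3, and 67 with 12 libraries in one fit. Same-numbered control and knockdown libraries correlated in their deviations at -0.155 to 0.128 for AsPC-1 and at 0.029 to 0.139 for PANC-1, so the numbers were not taken to pair them. With the replicate block, 29 miRNAs were called for AsPC-1 and 153 for PANC-1, and miR-21-5p in PANC-1 had an LFC of 0.30 (adjusted p = 0.00488, edgeR). With 3 libraries per group, exact tests of a share cannot go below 0.1. No alternative matched the depth of the groups, and a count of 3 equals 0.410 to 0.788 CPM at these depths.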
